A study of Homo sapiens with 24 samples.

Results

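The second day of doxycycline treatment in the control cells of this series is described here, as the change in RNA between 24 h and 48 h. The members are the 3 libraries of CTRL cells at 48 h and the 3 libraries of CTRL cells at 24 h, chosen by their labels, which makes 6 of the 24 libraries of the series. MIA PaCa-2 is an established line of human pancreatic carcinoma cells. CTRL cells are MIA PaCa-2 cells with a Tet-On construct that lacks the CEBPD cDNA and with the red fluorescent protein mCherry, and both groups received 2 µg/mL doxycycline, for 24 h or for 48 h. The other line, C/EBPδ-inducible cells, carries a doxycycline-inducible CEBPD cDNA together with mVenus and is a pool of 3 clones, so that it differs from CTRL cells in more than the cDNA. Cells were seeded in parallel wells and 3 wells were taken per group, and p values therefore measure the spread between wells. CTRL cells kept for 48 h without doxycycline were not analysed here, so that a second day of doxycycline, a second day in the well, cell density and the age of the medium cannot be told apart.

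Adherent cancer cells that are left in the same well divide until space, nutrients or growth factors become limiting. In a dividing population, replication-dependent histone genes are transcribed in S phase, the genes of DNA replication are switched on by E2F factors before it, and mitotic genes follow in G2 under the DREAM complex and FOXM1. Ribosome production, chaperones and early-response transcription factors follow growth factor signalling, whereas FOXO factors and the YPEL and cyclin G2 genes are known from resting cells.

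The totals of the 6 libraries ranged from 16976693 to 22312401 counts, and 3 counts, used as the floor of detection, corresponded to between 0.139 and 0.176 CPM (CPM being the count of a gene per 1e6 counts of its library, scaled with TMM factors). The floor covers counting error only, whereas each SD and SE given below includes the spread between wells. Replicates within a group differed by more than counting noise, with a chi-square per gene from 1.63 to 2.45 at 24 h and from 3.15 to 7.52 at 48 h, so that none was a copy of another and the 48 h wells varied more. Mitochondrially encoded genes took from 2.58 to 2.66% of the counts at 24 h and from 3.19 to 3.65% at 48 h. The keratins KRT8 and KRT18 and the mesenchymal filament VIM were high in all 6 libraries, whereas the epithelial markers CDH1 and EPCAM stayed below 2 CPM, with EPCAM at 1.8, 1.16 and 1.19 CPM at 24 h and 0, 1.82 and 1.58 CPM at 48 h. None of the 7 endothelial markers passed the filter on low counts (summed level 0.0462 to 0.106 CPM at 24 h and 0.21 to 0.248 CPM at 48 h). Of 9 leukocyte markers, 3 were tested and 1 was called, CD14 with 0.265, 0.508 and 0.712 CPM at 24 h and 1.34, 1.29 and 1.26 CPM at 48 h, with PTPRC, CD3E and CD2 at 0 in the 6 libraries. Their summed level was between 3.28 and 4.16 CPM at 24 h and between 4.12 and 20.6 CPM at 48 h, and the highest value came from LYZ in 1 library, with 1.33, 2.13 and 1.52 CPM at 24 h and 1.29, 18.2 and 2.47 CPM at 48 h. Of 8 fibroblast markers, 3 were tested and 2 were called higher, COL1A2 with 517, 531 and 542 CPM at 24 h and 684, 592 and 664 CPM at 48 h and COL3A1 with 0.212, 0.231 and 0.38 CPM at 24 h and 0.893, 0.763 and 0.894 CPM at 48 h, and DCN was at 0. The called markers CD14, COL1A2 and COL3A1 were thus higher at 48 h. CD14 and COL3A1 passed the filter on low counts through their 48 h libraries. The leukocyte sum of replicate 1 at 48 h lay within the range at 24 h, and the part of these markers in the results was not tested.

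Between 24 h and 48 h, most tested genes for histones, DNA replication, mitosis, ribosome biogenesis and heat shock proteins fell in CTRL cells. Most tested interferon-stimulated genes, members of the FOXO and quiescence list, collagens and matrix enzymes, and fatty acid genes rose. Of 15427 genes that passed the filter on low counts, 3621 (23.5%) were called at an adjusted p below 0.01 in edgeR's quasi-likelihood test. Of these, 1880 (12.2% of the genes tested) were higher and 1741 (11.3%) were lower at 48 h. The steps were mostly small, with a median size of 0.40 (log2) among the genes called, and 7129 genes had an unadjusted p below 0.05. Larger steps lay mainly upwards: 764 genes rose and 175 fell by at least 1.5-fold, and 287 rose and 25 fell by at least 2-fold. In 7554 genes (49%) the 3 libraries at 48 h all lay on one side of the 3 libraries at 24 h. The genes that fell were the more abundant ones, with a median level of 80.9 CPM against 18.9 CPM for those that rose. Their median GC content was 52.4%, against 48.0% for the genes that rose, and with offsets for GC content 2574 genes were called higher and 2618 lower. Without TMM factors 62.0% of the genes called were higher, in place of 51.9%. The number called was 2239, 2223 and 2361 without replicates 1, 2 and 3 at 24 h, and 2379 without replicate 3 at 48 h. By an analysis of variance on values of log2(CPM + 1), the calls numbered 858, more of them lower (486) than higher (372). It called 12 histone genes, 9 replication genes, 14 mitotic genes, 18 ribosome biogenesis genes and 5 heat shock genes lower. Called higher were 8 members of the FOXO and quiescence list, 4 interferon-stimulated genes, 3 fatty acid genes, 2 collagen and matrix genes and 0 mitochondrially encoded mRNAs. Genes called lower outnumbered those called higher with DESeq2 too (1899 against 1384) and when any 1 of the 6 libraries was left out.

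**Figure D1:**
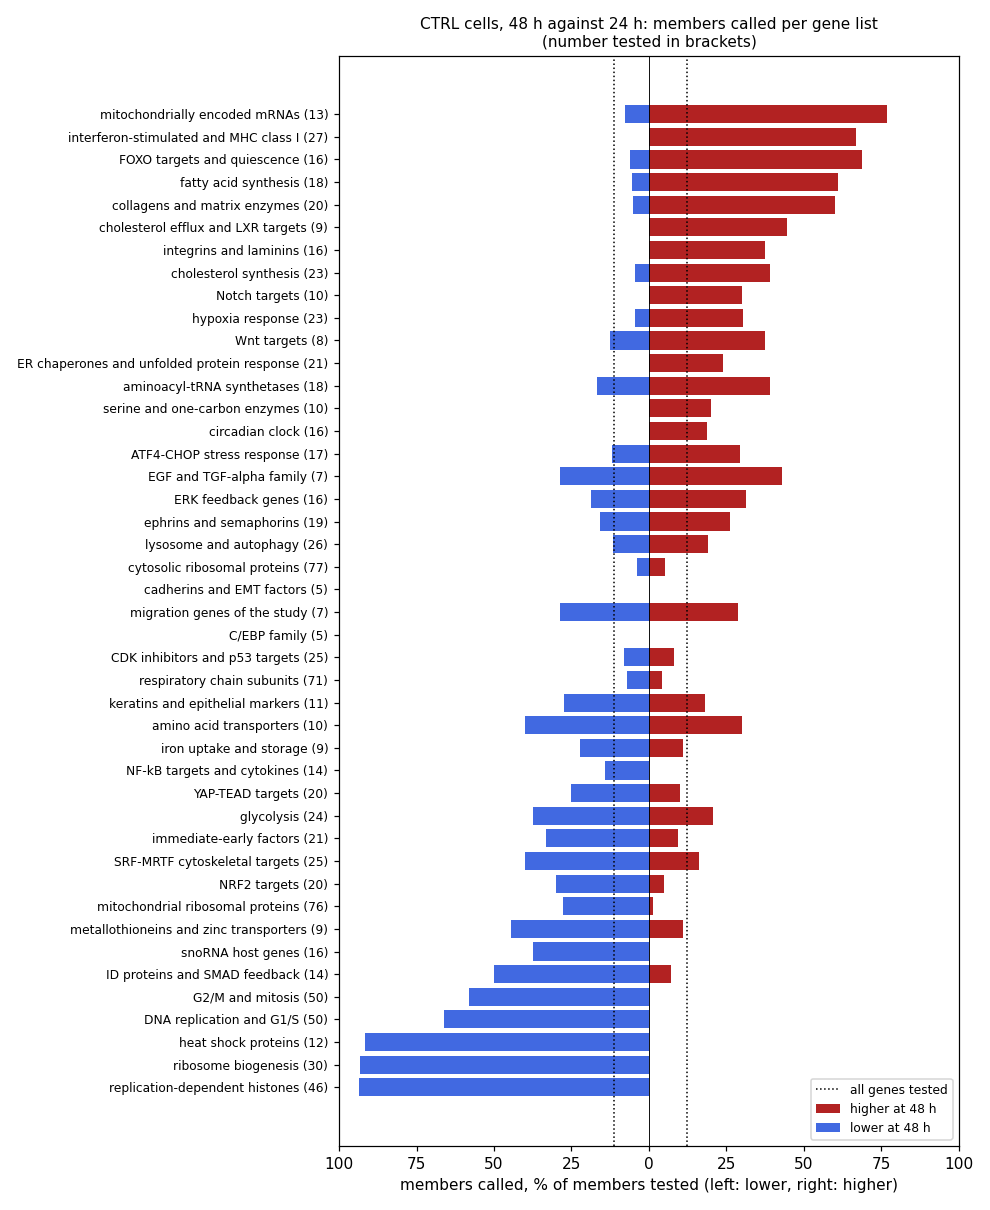
Share of the tested members of 44 gene lists that were called higher (red, to the right) or lower (blue, to the left) at 48 h, in percent of the members tested. The dotted lines mark 12.2% and 11.3%, the shares over all 15427 genes, and histones, ribosome biogenesis and heat shock proteins reach farthest to the left with 93.5%, 93.3% and 91.7%.

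Histone mRNA levels fell almost throughout. Of 46 tested genes for replication-dependent histones, which package newly copied DNA, 43 were called lower and 0 higher at 48 h, against 11.3% called lower among all genes, with a median log2 fold change of -0.54 against 0.021 over all genes tested. Their summed level was between 6136 and 6521 CPM at 24 h and between 4103 and 4555 CPM at 48 h, so that the groups did not overlap. H2BC3, an H2B gene, stood at 119, 90.0 and 96.2 CPM at 24 h and 39, 38.7 and 41.8 CPM at 48 h. All 3 libraries at 48 h were far below the lowest library at 24 h in this gene, and the log2 fold change was -1.33 ± 0.095 SE, adjusted p = 3.46e-06. Lack of overlap was a condition for naming H2BC3 by the size of its step, and also H3C12 and H2AC4 below. It was found in 49% of all genes tested. The H3 gene H3C12 followed with 124, 108 and 114 CPM at 24 h and 43.3, 38.8 and 56.4 CPM at 48 h (log2 -1.30 ± 0.11 SE, adjusted p = 7.25e-06). H2AC4, an H2A gene, stood at 82.8, 71.9 and 77.5 CPM at 24 h and 33.7, 29.2 and 33.8 CPM at 48 h (log2 -1.24 ± 0.073 SE, adjusted p = 1.23e-06). Many genes of these clusters are near-identical copies whose reads could be split between them, so that the value of a single histone gene is uncertain. With 1 of the 6 libraries omitted, between 42 and 43 members were called lower, and 12 by the analysis of variance. Most histone mRNAs lack a poly(A) tail, and these libraries were made by depletion of ribosomal RNA, which retains them. In bulk RNA, fewer cells in S phase and less RNA per cell cannot be told apart, and the same holds for every list below.

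The promoter of H2BC3 is printed because its list moved as a block, and it shows the elements these promoters share. The 150 bases before the start (RefSeq, GRCh38.p14, chr6:26043714-26043863, minus strand) are given 5′ to 3′ with the CCAAT box, the TATA box (TATAAA) and the octamer ATTTGCAT in capitals, each searched on both strands.
H2BC3: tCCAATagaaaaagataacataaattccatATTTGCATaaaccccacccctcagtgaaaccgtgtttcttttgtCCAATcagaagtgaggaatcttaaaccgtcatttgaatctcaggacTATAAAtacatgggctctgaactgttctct
In the 300 bases around the start, CCAAT was found in 34 of the 41 histone promoters that could be matched (82.9%), against 35.7% of all 27305 promoters. TATAAA was found in 30 of them (73.2%, against 12% of all promoters) and the octamer in 19 (46.3%, against 1.8%). Such matches describe the letters of these windows and are not evidence of binding.

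Genes of DNA replication and of mitosis fell as well. Of 50 genes for DNA replication and the G1/S transition, 33 were called lower and 0 higher (median log2 -0.29), and of 50 genes for G2/M and mitosis 29 were called lower and 0 higher (median log2 -0.24). CDC25A, the phosphatase that opens the way into S phase, stood at 64.1, 65.1 and 63.5 CPM at 24 h and 35.7, 38.2 and 39.3 CPM at 48 h (log2 -0.75 ± 0.055 SE, adjusted p = 4.33e-06). CCNE2, a cyclin of the G1/S transition, stood at 27.8, 28.7 and 27.3 CPM at 24 h and 14.1, 18.7 and 18.9 CPM at 48 h, with replicate 1 lowest at 48 h and no overlap between the groups (log2 -0.68 ± 0.099 SE, adjusted p = 0.00028). RRM2, the inducible subunit of ribonucleotide reductase, stood at 698 ± 8.88 CPM at 24 h and 463 ± 25.4 CPM at 48 h (SD, n = 3; log2 -0.57 ± 0.041). FEN1, the flap endonuclease of lagging-strand synthesis, shares exons on the same strand with FADS2 in the annotation, so that its log2 value of -0.60 ± 0.063 is uncertain. UHRF1, which carries DNA methylation over to new strands, had -0.53 ± 0.047. Among the 7 MCM genes of the list, which encode the replicative helicase and its activation factor MCM10, the log2 fold changes ran from -0.53 in MCM7 to -0.15 in MCM6, all of them called lower. RRM1, PRIM1 and LIG1 were not called (log2 -0.088, 0.0093 and -0.17).

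In mitosis, the steepest declines named here were in the machinery of anaphase. CDC20, which activates the anaphase-promoting complex, stood at 392, 411 and 408 CPM at 24 h and 258, 237 and 252 CPM at 48 h (log2 -0.67 ± 0.04 SE, adjusted p = 1.23e-06). UBE2S, the ubiquitin-conjugating enzyme that works with this complex, stood at 123, 121 and 129 CPM at 24 h and 82.7, 70.3 and 74.8 CPM at 48 h (log2 -0.69 ± 0.06 SE, adjusted p = 9.99e-06). The libraries of the groups were far apart in both genes. PLK1 and KIF20A, a mitotic kinase and a kinesin of cytokinesis, had log2 values of -0.55 ± 0.041 and -0.53 ± 0.037, and the survivin gene BIRC5 had -0.54 ± 0.047. MKI67, the gene of the proliferation antigen Ki-67, was at 1835 ± 61.1 CPM at 24 h and 1402 ± 21 CPM at 48 h (SD, n = 3; log2 -0.37 ± 0.03 SE, adjusted p = 6.75e-06). Among the 21 members that were not called were HMMR and TTK (log2 -0.00036 and 0.048). Leaving out a library gave from 25 to 40 replication genes and from 24 to 37 mitotic genes called lower. Of 25 tested inhibitors of cyclin-dependent kinases and targets of p53, 2 were called higher, TP53INP1 (log2 1.25) and BTG2 (0.37), and 2 lower, AEN (-0.70) and CDKN2C (-0.49). These shares, 8% in each direction, were below those over all genes, 12.2% higher and 11.3% lower. CDKN1A, the p21 gene, stood at 4.35, 6.14 and 4.13 CPM at 24 h and 4.62, 4.93 and 5.68 CPM at 48 h, and these ranges overlapped (adjusted p = 0.762).

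A replication and a mitotic promoter are shown for the same reason. Each is from a called member with a marked fall and with the motifs in the 150 bases before the start, and not every member was considered. The capitals in UHRF1 (chr19:4909351-4909500, plus strand) are the E2F letters TTCCCGC on either strand, and those in CDC20 (chr1:43358831-43358980, plus strand) are the CHR letters TTTGAA and the CCAAT box.
UHRF1: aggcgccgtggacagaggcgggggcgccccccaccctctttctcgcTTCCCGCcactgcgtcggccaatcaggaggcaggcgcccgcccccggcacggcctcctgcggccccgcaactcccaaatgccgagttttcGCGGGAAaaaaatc
CDC20: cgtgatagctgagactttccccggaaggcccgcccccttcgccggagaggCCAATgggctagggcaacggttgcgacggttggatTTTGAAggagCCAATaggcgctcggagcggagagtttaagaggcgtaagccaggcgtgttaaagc
TTCCCGC was present in 18 of 41 matched replication promoters (43.9%, against 6.56% of all promoters and 10.5% of the promoters of genes tested), and a second E2F form, TTGGCGC, in 13 (31.7%, against 3.12% and 5.14%). TTTGAA was present in 30 of 43 matched mitotic promoters (69.8%, against 15.4%) and CCAAT in 33 of them (76.7%, against 35.7%).

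The genes of ribosome production fell nearly throughout too. Of 30 genes for ribosome biogenesis, 28 were called lower and 0 higher, with a median log2 fold change of -0.38 and summed levels of 10086 to 10266 CPM at 24 h and 7737 to 8124 CPM at 48 h. NOP16, a nucleolar assembly factor of the large subunit, stood at 116, 114 and 116 CPM at 24 h and 71.1, 72.6 and 74.2 CPM at 48 h (log2 -0.64 ± 0.044 SE, adjusted p = 2.7e-06). RRP9 and NOP56, which belong to box C/D ribonucleoproteins, had log2 values of -0.61 ± 0.054 and -0.52 ± 0.034. Exons of NOP56 overlap small RNA genes on the same strand, whose reads cannot be told apart from its own. NCL, the abundant nucleolar protein nucleolin, stood at 2754, 2712 and 2647 CPM at 24 h and 1996, 2198 and 2112 CPM at 48 h (log2 -0.34 ± 0.036 SE, adjusted p = 3.01e-05). The 2 members that were not called still had estimates below 0. Of 16 snoRNA host genes, whose introns carry snoRNAs, 6 were called lower and 0 higher, led by SNHG12 (log2 -0.64 ± 0.061). Among 64 snoRNA genes tested, 4 were called lower and 0 higher, a smaller share than the 11.3% called lower among all genes. SNORD46 was the steepest of them, with 15.3, 13.6 and 15.2 CPM at 24 h and 4.22, 3.52 and 4.15 CPM at 48 h (log2 -1.86 ± 0.11 SE, adjusted p = 1.16e-06). The share of counts in small RNA genes was 0.484% in replicate 1 at 24 h and between 0.266 and 0.304% in the other 5 libraries, and its part in this result was not tested. Among the structural proteins of the ribosome, of 77 cytosolic ribosomal protein genes, 4 were called higher (RPL3, RPL12, RPL15 and RPL22) and 3 lower (RPL24 and RPS12 among them), both below the background shares, and without replicate 2 or 3 at 24 h 0 were called in either direction. Mitochondrial ribosomal proteins had 1 member called higher, MRPL24 (log2 0.42), and 21 of 76 called lower, a number that was between 10 and 12 without replicate 1, 2 or 3 at 24 h or replicate 3 at 48 h.

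**Figure D2:**
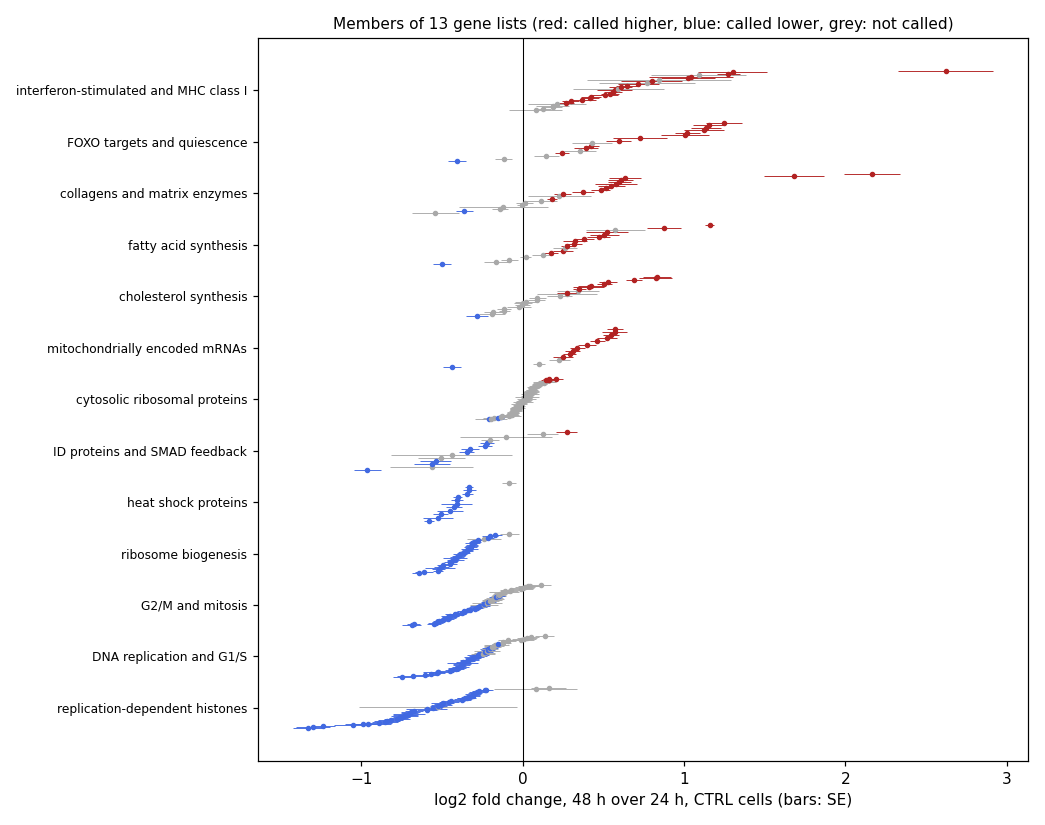
Log2 fold change from 24 h to 48 h with its standard error for each tested member of 13 gene lists, ordered within a list. Blue and red points were called lower and higher, grey points were not called, and the ribosome biogenesis genes lie between -0.64 and -0.081 while the cytosolic ribosomal proteins lie between -0.21 and 0.21.

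Heat shock proteins fell together as well. Of 12 tested heat shock protein genes, 11 were called lower and 0 higher (median log2 -0.41), and HSPB1 was not called. HSPA8, the constitutive HSP70, stood at 2842, 2828 and 2770.3 CPM at 24 h and 1829, 1924 and 1811 CPM at 48 h (log2 -0.58 ± 0.031 SE, adjusted p = 1.16e-06), and its exons overlap snoRNA genes on the same strand. HSP90AA1, 1 of the 5 genes with the highest level among those called, stood at 5417, 5478 and 5385 CPM at 24 h and 3883, 4197 and 4054 CPM at 48 h (log2 -0.40 ± 0.029 SE, adjusted p = 3.8e-06). DNAJA1, a co-chaperone of HSP70, had a log2 value of -0.51 ± 0.045. HSPA1A and HSPA1B, a pair of near-identical genes, had -0.53 ± 0.093 and -0.41 ± 0.095. In contrast, of 21 genes for chaperones of the endoplasmic reticulum and the unfolded protein response, 5 were called higher and 0 lower, among them CREB3L2 (log2 0.32), SEL1L (0.31) and ATF6 (0.25). The 5 became 1 without any 1 of the 24 h replicates.

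The ribosome and chaperone promoters carry other letters, which are shown in capitals as CACGTG in UTP20 (chr12:101279955-101280104, plus strand), a factor of small-subunit processing with a log2 fold change of -0.40, and as the heat shock element in HSPA8 (chr11:123062137-123062286, minus strand), here on the reverse strand. That element was searched as GAA, TTC and GAA, with any 2 bases before and after the TTC.
UTP20: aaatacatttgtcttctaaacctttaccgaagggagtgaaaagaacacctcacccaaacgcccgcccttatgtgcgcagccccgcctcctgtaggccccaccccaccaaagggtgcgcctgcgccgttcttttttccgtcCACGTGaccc
HSPA8: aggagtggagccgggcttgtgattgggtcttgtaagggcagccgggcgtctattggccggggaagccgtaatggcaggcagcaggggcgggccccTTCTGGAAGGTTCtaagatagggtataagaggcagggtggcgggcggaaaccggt
CACGTG was found in 9 of 24 matched promoters of ribosome biogenesis (37.5%, against 7.43% of all promoters and 10.2% of those of genes tested), and the heat shock element in 2 of 12 chaperone promoters (16.7%, against 0.487%).

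Part of the early-response transcription factors, of the SMAD feedback genes and of the cytoskeleton fell. Of 21 immediate-early factors, 7 were called lower and 2 higher. FOSL1, an AP-1 subunit, stood at 100.4, 99.2 and 95.5 CPM at 24 h and 52.9, 51 and 51.6 CPM at 48 h (log2 -0.90 ± 0.049 SE, adjusted p = 1.16e-06), and JUN stood at 83.4, 90.4 and 88.4 CPM at 24 h and 56.2, 57 and 58.1 CPM at 48 h (log2 -0.59 ± 0.049 SE, adjusted p = 7.63e-06). MYC, which drives growth genes, fell by less (log2 -0.19 ± 0.036). JUND and EGR1 went the other way with log2 values of 0.52 and 0.24. Of 14 ID and SMAD feedback genes, 7 were called lower and 1 higher, LTBP2. ID2, an inhibitor of helix-loop-helix factors, stood at 22, 21.2 and 22.6 CPM at 24 h and 11, 12.2 and 10.1 CPM at 48 h (log2 -0.96 ± 0.085 SE, adjusted p = 1.06e-05), with each library at 48 h far below those at 24 h, and ID3 had a log2 value of -0.35 ± 0.048. PMEPA1 and NOG had log2 values of -0.54 and -0.56. Of 20 YAP-TEAD targets, 5 were called lower and 2 higher, and 9 or 8 were lower without replicate 1 or 2 at 48 h. CCN1 and AMOTL2, classical targets of YAP, had log2 values of -0.76 ± 0.048 and -0.78 ± 0.044. Of 25 SRF-MRTF targets of the actin cytoskeleton, 10 were called lower and 4 higher. TAGLN, an actin-bundling protein, stood at 7.48, 6.93 and 8.5 CPM at 24 h and 4.37, 4.63 and 3.63 CPM at 48 h (log2 -0.84 ± 0.13 SE, adjusted p = 0.000438). ACTG1 and ACTB had log2 values of -0.42 and -0.11, whereas FHL1 rose (log2 1.04). The call of ACTB was lost with total counts, with upper-quartile factors and with GC-content offsets.

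Among redox, metal and iron genes, more were called lower than higher, in lists of few members. The shares over all genes were 11.3% lower and 12.2% higher. Of 20 NRF2 targets, 6 were called lower and 1 higher, SLC7A11. SRXN1, sulfiredoxin, stood at 1.43, 2.22 and 1.33 CPM at 24 h and 0.546, 0.645 and 0.683 CPM at 48 h (log2 -1.39 ± 0.29 SE, adjusted p = 0.00311), at levels near 1 CPM, and lost its call without replicate 2 at 24 h or replicate 3 at 48 h. OSGIN1 and the export pump ABCC2 had log2 values of -0.96 ± 0.11 and -0.63 ± 0.051. Of 9 metallothionein and zinc transporter genes, 4 were called lower and 1 higher, led by MT1G with 23.9, 23.9 and 21.7 CPM at 24 h and 14.6, 14 and 15.1 CPM at 48 h (log2 -0.65 ± 0.076 SE, adjusted p = 6.66e-05). Among 9 genes of iron handling, 2 were called lower and 1 higher (22.2% and 11.1%), and leaving out a library gave from 1 to 4 lower. TFRC, the transferrin receptor, stood at 1150.3, 1151 and 1144 CPM at 24 h and 686, 780.4 and 775 CPM at 48 h (log2 -0.60 ± 0.044 SE, adjusted p = 4.33e-06). Of 14 NF-kB targets and cytokines, 2 were called lower and 0 higher, CXCL1 (log2 -0.65) and NFKB1 (-0.26). Their share called lower, 14.3%, was near the 11.3% of all genes.

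Genes known from resting cells rose. Of 16 tested FOXO targets and quiescence genes, 11 were called higher and 1 lower, against 12.2% called higher among all genes, with a median log2 fold change of 0.51. CCNG2, cyclin G2, stood at 10.5, 12.4 and 10.4 CPM at 24 h and 22.4, 25.9 and 23.8 CPM at 48 h (log2 1.14 ± 0.092 SE, adjusted p = 6.75e-06). YPEL2 and YPEL3, of the yippee family, stood at 4.19, 4.07 and 4.13 CPM at 24 h and 8.89, 10.6 and 9.52 CPM at 48 h and at 3.34, 3.56 and 3.47 CPM at 24 h and 7.84, 7.86 and 6.57 CPM at 48 h, and the groups did not overlap in either (log2 1.25 ± 0.11 and 1.12 ± 0.12). KLF9 and KLHL24 rose to a like degree (log2 1.16 ± 0.10 and 1.02 ± 0.077). The factors FOXO1, FOXO3 and FOXO4 were themselves called higher, FOXO1 with 2.33, 2.31 and 1.99 CPM at 24 h and 4.62, 4.22 and 4.26 CPM at 48 h (log2 1.0 ± 0.15 SE, adjusted p = 0.00031). RBL2, the pocket protein p130 of the DREAM complex, had a log2 value of 0.43 ± 0.046. The member that fell was IRS2, an adaptor of the insulin receptor, with 49.1, 48.4 and 51.9 CPM at 24 h and 35.6, 37.7 and 37.6 CPM at 48 h (log2 -0.41 ± 0.057 SE, adjusted p = 0.000202). TXNIP was not called (log2 -0.12). With 1 library omitted, from 8 to 12 of the 16 were called higher. The letters GTAAACA were found in 3 of the 16 promoters (18.8%, against 3.41% of all promoters).

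Genes of fatty acid synthesis and of sterol efflux rose in part. Of 18 fatty acid genes, 11 were called higher and 1 lower (median log2 0.30). SCD, the stearoyl-CoA desaturase that makes monounsaturated fatty acids, stood at 884, 899 and 907 CPM at 24 h and 1963, 1969 and 1985 CPM at 48 h. The spread within each group was small, and its p was the smallest of the named genes (log2 1.16 ± 0.026 SE, adjusted p = 2.93e-10). FADS2, another desaturase, stood at 9.71, 10.9 and 9.4 CPM at 24 h and 20.7, 17.1 and 16.3 CPM at 48 h (log2 0.88 ± 0.11 SE, adjusted p = 7.85e-05), and it shares exons with FEN1, which fell. ELOVL1, an elongase, was the member that fell (log2 -0.50 ± 0.054), and FASN and ACLY were not called (log2 0.12 and 0.019). The 11 became 6 without any 1 of the 24 h replicates and 7 without replicate 3 at 48 h. Of 23 cholesterol synthesis genes, 9 were called higher and 1 lower, EBP. TM7SF2 and MSMO1, late enzymes of the pathway, had log2 values of 0.83 ± 0.088 and 0.82 ± 0.10, and INSIG1, which holds SREBP back, had 0.69 ± 0.051. Of 9 targets of the sterol sensor LXR and efflux genes, 4 were called higher and 0 lower. The cholesterol exporter ABCG1 stood at 3.45, 3.51 and 3.99 CPM at 24 h and 11.8, 10.6 and 11.7 CPM at 48 h (log2 1.66 ± 0.11 SE, adjusted p = 1.94e-06) and ABCA1 at 6.74, 7.85 and 8.17 CPM at 24 h and 20.1, 18.1 and 17.9 CPM at 48 h (log2 1.32 ± 0.094 SE, adjusted p = 3.46e-06). Each library at 48 h held more than 2 times the level of any library at 24 h in both exporters. The letters TCACNCCAC of a sterol element, searched on both strands, were found in 0 of 16 matched fatty acid promoters and in 1 of 17 cholesterol synthesis promoters (5.88%, against 1.15% of all promoters), and CCAAT in 14 of the latter (82.4%, against 35.7%).

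**Figure D3:**
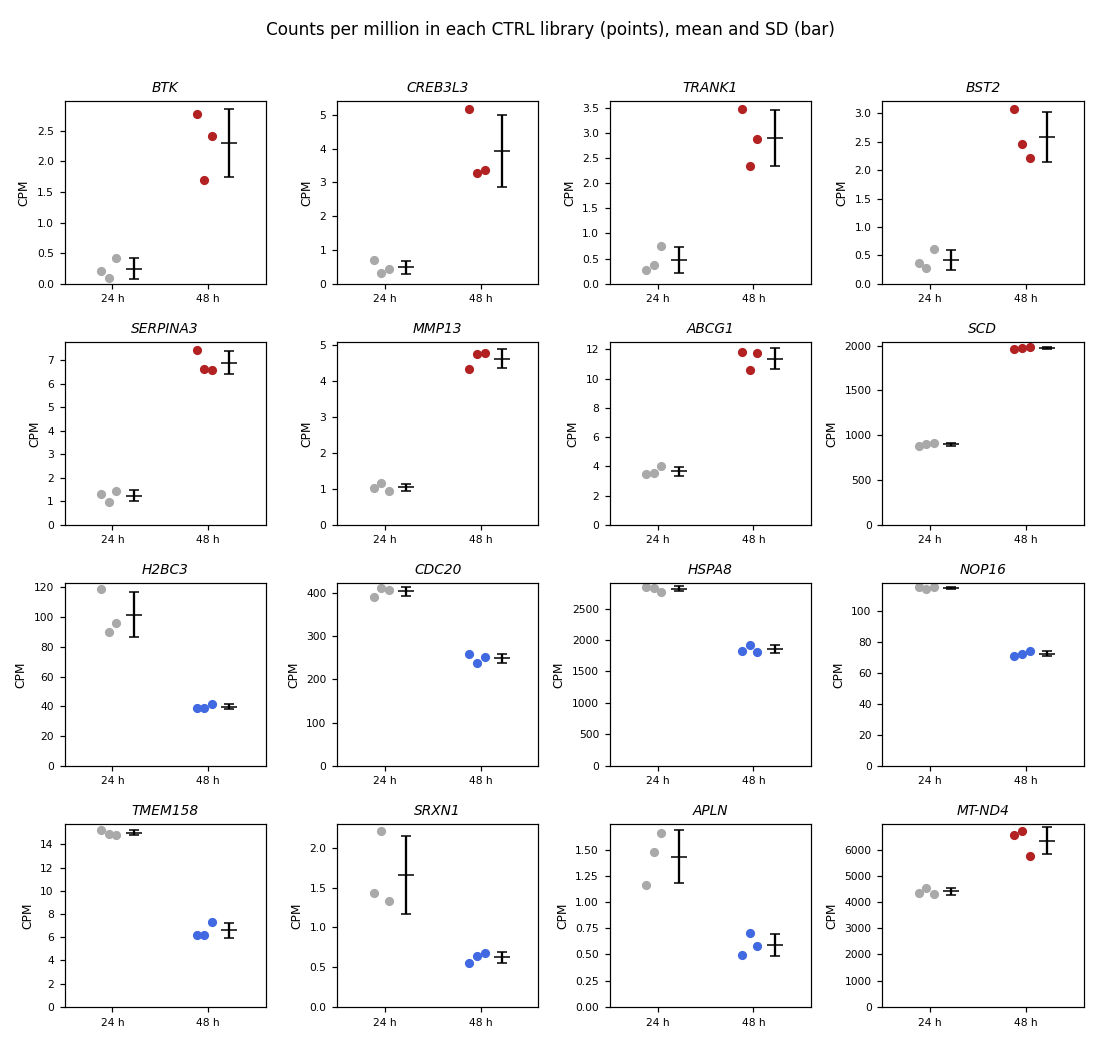
Level in CPM of 16 genes in each of the 6 CTRL libraries (points) with the mean and SD of each group (bar), at 24 h and 48 h of doxycycline. In all 16 genes the libraries of the groups do not overlap, from BTK with 0.244 and 2.30 CPM on average to SCD with 897 and 1972 CPM. For the genes named by the size of their step, lack of overlap was a condition of being named.

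Interferon-stimulated genes and MHC class I rose without a fall among them. Of 27 tested, 18 were called higher and 0 lower, with a median log2 fold change of 0.57, and the summed level was between 815 and 861 CPM at 24 h and between 1063 and 1104 CPM at 48 h. BST2, the tetherin that holds budding virus on the cell surface, stood at 0.371, 0.277 and 0.617 CPM at 24 h and 3.08, 2.46 and 2.21 CPM at 48 h (log2 2.62 ± 0.30 SE, adjusted p = 4.98e-05), at low levels throughout. BST2 passed the filter on low counts through its 48 h libraries. IFITM1, a membrane protein that restricts viral entry, stood at 18.9, 18.5 and 20.5 CPM at 24 h and 47.9, 47.3 and 43 CPM at 48 h (log2 1.28 ± 0.07 SE, adjusted p = 1.16e-06). IFIT3 and IFI35 stood at 3.02, 2.68 and 4.13 CPM at 24 h and 6.5, 7.57 and 5.73 CPM at 48 h and 0.902, 0.924 and 1.28 CPM at 24 h and 2.43, 2.7 and 2.47 CPM at 48 h (log2 1.03 ± 0.17 and 1.30 ± 0.21). IRF1, a factor of the interferon response, stood at 13.3, 13.4 and 14.2 CPM at 24 h and 21.1, 21 and 21.1 CPM at 48 h (log2 0.65 ± 0.071 SE, adjusted p = 3.72e-05). Of the antigen presentation genes, HLA-B and HLA-C had log2 values of 0.42 ± 0.063 and 0.37 ± 0.083, and B2M, their light chain, had 0.27 ± 0.052. Class I genes are close in sequence, so that their reads could be shared. STAT2 rose (log2 0.42) while IRF9 was not called (log2 0.082). The 18 became 11 without replicate 2 at 24 h.

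BST2 is printed as the member with the largest rise among those with the interferon-stimulated response element, searched as a pair of GAAA blocks with any 2 bases between them, in the 150 bases before the start (chr19:17405631-17405780, minus strand), where a pair of overlapping matches is in capitals.
BST2: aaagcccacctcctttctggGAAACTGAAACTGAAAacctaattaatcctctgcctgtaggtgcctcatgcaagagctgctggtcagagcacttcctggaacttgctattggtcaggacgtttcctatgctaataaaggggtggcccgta
The element was found in 12 of 21 matched promoters of this list (57.1%), against 3.65% of all promoters and 3.17% of the matched promoters of genes called higher.

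Collagens and matrix enzymes were mostly higher, whereas the lists for adhesion and for surface ligands were split or held fewer calls. Of 20 tested genes for collagens and matrix enzymes, 12 were called higher and 1 lower, COL17A1 (median log2 0.31). MMP13, collagenase 3, stood at 1.01, 1.16 and 0.95 CPM at 24 h and 4.32, 4.75 and 4.78 CPM at 48 h (log2 2.17 ± 0.17 SE, adjusted p = 6.6e-06), and the fibrillar collagen gene COL5A1 stood at 1.86, 2.59 and 1.9 CPM at 24 h and 8.24, 5.81 and 6.05 CPM at 48 h (log2 1.68 ± 0.19 SE, adjusted p = 4.17e-05). MMP1, the interstitial collagenase, stood at 805, 794 and 791 CPM at 24 h and 1098, 1149 and 1119 CPM at 48 h (log2 0.52 ± 0.031 SE, adjusted p = 1.23e-06). The AP-1 letters TGANTCA were found in 1 of 14 matched promoters of this list (7.14%, against 7.76% of all promoters). COL18A1, COL27A1 and COL6A2 rose by 0.61, 0.63 and 0.60 on the log2 scale. Of 16 integrins and laminins, 6 were called higher and 0 lower, led by ITGB4, which rose by 0.52. The 6 became 1 without replicate 1 and 2 without replicate 2 at 24 h. Of 11 keratins and epithelial markers, 2 were called higher, CLDN4 (log2 0.78) and MUC1 (0.62), and 3 lower. KRT80 stood at 110.3, 117 and 110.3 CPM at 24 h and 66.2, 62.8 and 66.1 CPM at 48 h (log2 -0.77 ± 0.049 SE, adjusted p = 1.84e-06), and KRT8 and KRT18, whose exons overlap on opposite strands, had -0.27 and -0.16. Of 5 tested cadherins and EMT factors, 0 were called. Among 7 tested receptors and ligands of the EGF family, 3 were called higher (ERBB3 with a log2 value of 1.16, ERBB2 with 0.39 and AREG with 0.28) and 2 lower (HBEGF with -0.51 and EGFR with -0.19). Of 19 ephrins and semaphorins with their receptors, 5 were called higher and 3 lower, with EFNB2 at 8.22, 9.33 and 7.46 CPM at 24 h and 3.52, 4.34 and 4.1 CPM at 48 h (log2 -1.05 ± 0.13 SE, adjusted p = 9.26e-05). The 5 became 3 without replicate 1 or 2 at 24 h or replicate 1 or 3 at 48 h, and the 3 became 6 without replicate 1 at 48 h.

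Of the 13 mRNAs of the mitochondrial genome, 10 were called higher and 1 lower. MT-ND4, a subunit of complex I, stood at 4332, 4547 and 4321 CPM at 24 h and 6560.1, 6689 and 5759.9 CPM at 48 h (log2 0.55 ± 0.048 SE, adjusted p = 1.05e-05) and MT-ATP6 at 2182, 2169 and 2103 CPM at 24 h and 3366, 3220.2 and 2864 CPM at 48 h (log2 0.57 ± 0.05 SE, adjusted p = 1.01e-05). Replicate 3 was the lowest of the 48 h libraries in both, still above the 24 h libraries. MT-ND6, the only one of the 13 on the light strand, went the other way with 506, 478 and 451 CPM at 24 h and 335, 371 and 337 CPM at 48 h (log2 -0.44 ± 0.054 SE, adjusted p = 8.3e-05). The strand setting of the counting is not given in the sources used here. Of 71 nuclear subunits of the respiratory chain, 3 were called higher and 5 lower, both below the background.

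The remaining lists split or held few calls. Of 24 glycolysis genes, 9 were called lower and 5 higher, with hexokinase 2 (HK2) at 226, 229 and 225 CPM at 24 h and 147, 149.5 and 151 CPM at 48 h (log2 -0.58 ± 0.038 SE, adjusted p = 1.93e-06) and the aldolase ALDOC at 6.74, 6.51 and 7.69 CPM at 24 h and 18.2, 18.3 and 19.8 CPM at 48 h (log2 1.45 ± 0.09 SE, adjusted p = 1.73e-06). The 5 became 2 or 3 without any 1 of the 24 h replicates or replicate 3 at 48 h. Of 23 hypoxia genes, 7 were called higher, among them VEGFA (log2 0.50 ± 0.046) and DDIT4 (0.56 ± 0.046), and 1 lower, ADM (-0.74 ± 0.14). The 7 became 3, 4 and 4 without replicate 1 or 2 at 24 h and replicate 3 at 48 h. Of 17 genes of the ATF4-CHOP stress response, 5 were called higher, among them CBS and CTH of the transsulfuration pathway (log2 0.67 ± 0.14 and 0.50 ± 0.064), and 2 lower, ATF5 and PPP1R15A (log2 -0.49 ± 0.042 and -0.38 ± 0.058). Of 18 aminoacyl-tRNA synthetases, 7 were called higher, led by WARS1 (log2 0.41 ± 0.03), and 3 lower. The 7 became 3 without any 1 of the 24 h libraries or replicate 3 at 48 h. Serine and one-carbon enzymes had 2 of 10 called higher (PHGDH, log2 0.44, and ALDH1L2, 0.74), and amino acid transporters had 3 of 10 called higher and 4 lower, where the 3 became 1 without any 1 of the 24 h libraries or replicate 3 at 48 h. Of 26 lysosome and autophagy genes, 5 were called higher, led by GABARAPL1 (log2 0.82) and the protease CTSB (0.64), and 3 lower, or 5 lower without replicate 1 at 48 h and 1 lower without replicate 3 at 24 h or at 48 h. ERK feedback genes had 5 of 16 called higher, led by ETV1 (log2 0.86), which became 1 or 2 without a 24 h library or replicate 3 at 48 h, and 3 lower, DUSP5 (-0.67), DUSP7 (-0.57) and ETS1. The Notch list had 3 of 10 called higher, with NOTCH3 at 21.9, 22.2 and 24.4 CPM at 24 h and 48.5, 39.9 and 39.7 CPM at 48 h (log2 0.93 ± 0.087 SE, adjusted p = 1.45e-05). The Wnt list had 3 of 8 called higher, which became 0 without replicate 1 at 24 h or replicate 3 at 48 h, and 1 lower, the inhibitor DKK1 (log2 -0.58 ± 0.062). Clock genes had 3 of 16 called higher, DBP (log2 0.86), BHLHE40 (0.69) and NPAS2 (0.37). Of 4 tested glucose-sensing genes, MLXIPL rose (log2 1.38) and MLXIP fell (-0.33).

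Of 5 tested C/EBP family members, 0 were called. CEBPD, the gene that the construct of the other line carries, stood at 3.39, 3.7 and 3.66 CPM at 24 h and 3.28, 4.34 and 4.42 CPM at 48 h (adjusted p = 0.392), and these ranges overlapped. CEBPB had a log2 value of 0.20 ± 0.066 (adjusted p = 0.0304). Of the 7 migration genes that the study chose on these samples, which makes their direction no independent evidence, 2 were called higher, ITGB4 and GSN (log2 0.52 ± 0.073 and 0.46 ± 0.064), and 2 lower, ETS1 and EGFR (log2 -0.35 ± 0.066 and -0.19 ± 0.04). AXL, NET1 and MYPN had log2 values of -0.064, -0.058 and -0.092 and were not called. The call of EGFR was lost with total counts, with upper-quartile factors, in a model of all 24 libraries and without replicate 2 or 3 at 24 h or replicate 3 at 48 h.

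The largest single rises were in genes that were close to the floor at 24 h. BTK, CREB3L3 and TRANK1 passed the filter on low counts through their 48 h libraries, so that their rank depends on that group. BTK, a tyrosine kinase known from B cells (GENCODE 44 on GRCh38, chrX:101349338-101390796, minus strand), stood at 0.212, 0.0924 and 0.427 CPM at 24 h and 2.78, 1.7 and 2.42 CPM at 48 h (log2 3.24 ± 0.39 SE, adjusted p = 7.2e-05). CREB3L3, a membrane-bound transcription factor of lipid metabolism (chr19:4153631-4173054, plus strand), stood at 0.689, 0.323 and 0.427 CPM at 24 h and 5.16, 3.28 and 3.36 CPM at 48 h (log2 3.07 ± 0.30 SE, adjusted p = 1.9e-05). TRANK1 (chr3:36826819-36945057, minus strand) stood at 0.265, 0.37 and 0.76 CPM at 24 h and 3.47, 2.35 and 2.89 CPM at 48 h (log2 2.64 ± 0.31 SE, adjusted p = 7.01e-05). Non-overlapping libraries were a condition for every gene named as one of the largest rises or falls, whether protein-coding or not. This covers the genes named so below, and also BST2, MMP13, SRXN1, EFNB2 and SNORD46 above. The separation of their libraries is therefore no independent evidence of a step. Levels near the floor make the size of the rise uncertain in BTK, CREB3L3 and TRANK1. SERPINA3, an acute-phase protease inhibitor, stood at 1.33, 0.97 and 1.42 CPM at 24 h and 7.45, 6.63 and 6.57 CPM at 48 h (log2 2.50 ± 0.16 SE, adjusted p = 2.05e-06), and this rise started from a level above the floor. GFI1, STAC2, CIBAR2, SYNPO, HID1 and BMF followed with log2 values from 2.18 in BMF to 2.48 in GFI1, which are folds of 4.52 and 5.57. By the analysis of variance on log2(CPM + 1), GFI1, STAC2 and CIBAR2 had steps of 0.80, 0.88 and 0.82. Steps so much smaller on that scale go with levels near the floor at 24 h. GFI1, STAC2 and CIBAR2 therefore also passed the filter on low counts through their 48 h libraries. None of the genes from GFI1 to BMF kept its call by that analysis. The largest falls among coding genes were smaller than these rises. TMEM158, a gene induced by RAS signalling, stood at 15.3, 14.9 and 14.8 CPM at 24 h and 6.2, 6.22 and 7.31 CPM at 48 h (log2 -1.17 ± 0.093 SE, adjusted p = 6.31e-06). TRMT61A, which methylates transfer RNA, had a log2 value of -1.05 ± 0.079. The signalling adaptor CARD9 had -1.09 ± 0.17. APLN, the ligand of the apelin receptor, stood at 1.17, 1.48 and 1.66 CPM at 24 h and 0.496, 0.704 and 0.578 CPM at 48 h (log2 -1.26 ± 0.27 SE, adjusted p = 0.00366) and lost its call with DESeq2 and without replicate 2 or 3 at 24 h or replicate 3 at 48 h. Among genes not annotated as protein-coding, LINC01801 and the pseudogene ZNF815P rose (log2 2.50 ± 0.46 and 1.65 ± 0.36). ENSG00000069712, an identifier that GENCODE 44 does not hold and whose kind is thus unknown here, rose too (1.54 ± 0.15). The pseudogenes SMG1P4 and SLC4A1APP1 fell (-1.91 ± 0.30 and -1.41 ± 0.27), and their reads could belong to their parent genes. The calls of LINC01801, ZNF815P, SMG1P4 and SLC4A1APP1 were lost by the analysis of variance. LINC01801 had a step of 0.75 there, so that the size of its rise is uncertain. By kind of gene, 1761 of 11746 protein-coding genes tested were called higher and 1654 lower, 82 of 1597 long non-coding RNA genes higher and 34 lower, and 5 of 1187 processed pseudogenes higher and 28 lower. Exons of 1564 of the called genes overlap a gene on the other strand. Among the 5 most abundant genes called, GAPDH fell (log2 -0.21 ± 0.03) and the nuclear RNA MALAT1 rose (log2 0.37 ± 0.037).

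C/EBPδ-inducible cells were used to ask whether the step is particular to CTRL cells, since their libraries at 24 h and 48 h are shared with no CTRL comparison. In these cells 3724 of 15642 genes (23.8%) were called between 24 h and 48 h, 1836 higher and 1888 lower. Of the genes tested in both lines, 2253 were called in the same direction, which is 63.4% of the CTRL calls and 61.5% of the inducible calls, and 15 were called in opposite directions. The log2 steps of the lines were correlated over 14876 genes (Pearson 0.69, Spearman 0.69), and these genes are not independent replicates. Histones had 43 of 46 called lower in inducible cells too, replication genes 38 of 50, mitotic genes 31 of 50, ribosome biogenesis 24 of 30 and heat shock proteins 10 of 12, with none called higher. Fatty acid genes had 12 of 18 called higher and the FOXO list 10 of 16. Cholesterol synthesis genes had 14 of 23 called higher and 0 lower there, integrins and laminins 8 of 16 and 0, and mitochondrially encoded genes 4 of 13 and 0. Collagens and matrix enzymes had 7 called higher and 3 lower, SRF-MRTF targets 8 and 5, immediate-early factors 6 and 6, and lysosome and autophagy genes 2 and 8. SCD had a log2 step of 1.09 in inducible cells and of 1.16 in CTRL cells.

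**Figure D4:**
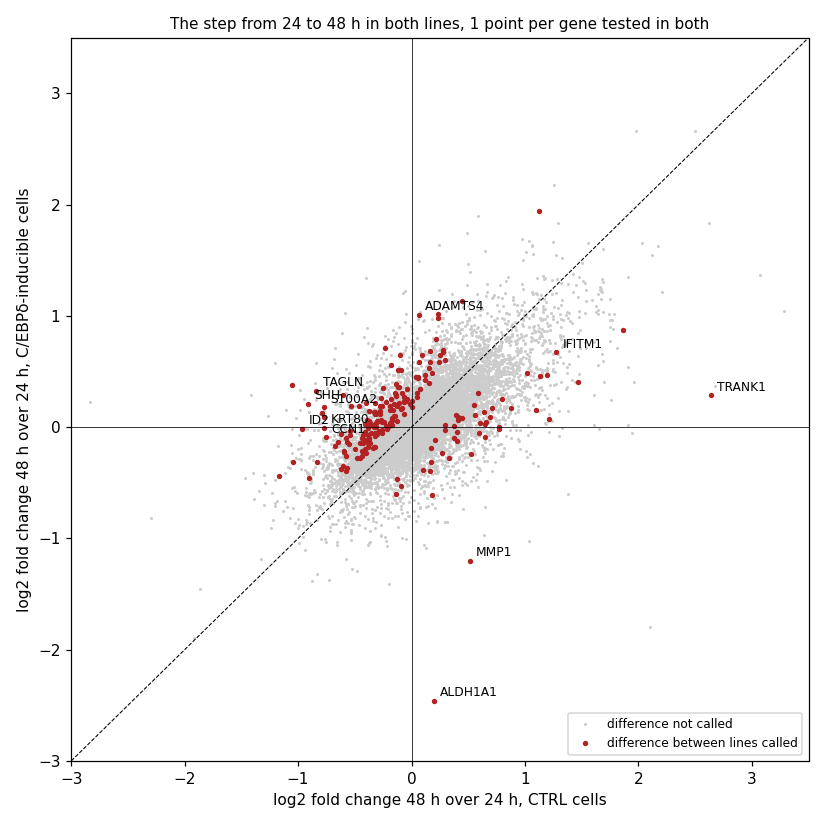
Log2 fold change from 24 h to 48 h in CTRL cells (horizontal) and in C/EBPδ-inducible cells (vertical) for 14876 genes tested in both, with the dashed line where the steps are equal. Red points are the 213 drawn genes whose step differed between the lines, most of them above the line, where the CTRL step was the smaller one (166 of all 215 called), with TRANK1 at 2.64 and 0.29 as one of those below it.

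The difference between the lines itself was called for 215 of 16486 genes (1.3%), and 2629 had an unadjusted p below 0.05. The CTRL step was greater in 49 of them and smaller in 166, and the called genes fell to 75 and 73 without replicate 1 or 2 of CTRL cells at 24 h. Differences are given as the CTRL step minus the inducible step on the log2 scale. BTK rose in CTRL cells and stood at 0.233 ± 0.111 CPM at 24 h and 0.12 ± 0.0101 CPM at 48 h in inducible cells (difference 4.14 ± 0.77, adjusted p = 0.00442), and the last of these levels is below the floor. This call was lost when any of 8 of the 12 libraries was left out. TRANK1 stood at 1.12 ± 0.364 CPM at 24 h and 1.38 ± 0.216 CPM at 48 h there (difference 2.32 ± 0.44, adjusted p = 0.00533), and its call was likewise lost without any of 8 of the 12 libraries. Within the interferon list, whose inducible count was 7 called higher and 1 lower, the difference was called for 4 of 27 members, IRF1 (0.70 ± 0.12), IFITM1 (0.56 ± 0.12), IFIT1 (0.53 ± 0.098) and B2M (0.46 ± 0.064), all with the greater step in CTRL cells, and B2M was called lower in inducible cells (log2 -0.23). The difference in B2M kept its call without each of the 12 libraries, whereas those in IRF1, IFIT1 and IFITM1 lost it without any of 3, 6 and 10 of them. For BST2, the member with the largest rise in CTRL cells, the difference was not called (inducible log2 1.84). CTSB rose in CTRL cells and had a log2 step of 0.028 in inducible cells (difference 0.58 ± 0.054), and this call was kept without each library. Of the 40 genes named by rule with a called difference, 14 kept the call without each of the 12 libraries in turn and 26 lost it without at least 1.

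Several of the falls were steeper in CTRL cells. ID2 had a log2 step of -0.96 in CTRL cells and of -0.015 in inducible cells (difference -0.99 ± 0.12, adjusted p = 4.99e-05). KRT80 and CCN1 had steps of -0.0066 and -0.09 in inducible cells (differences -0.80 ± 0.064 and -0.71 ± 0.059). SHH, the ligand of the hedgehog pathway, fell in CTRL cells with 11.5, 11.7 and 10.6 CPM at 24 h and 5.91, 6.04 and 5.73 CPM at 48 h and stood at 20.5 ± 2.76 CPM at 24 h and 24 ± 0.83 CPM at 48 h in inducible cells (difference -1.16 ± 0.14, adjusted p = 4.76e-05). These differences in ID2, KRT80, CCN1 and SHH kept their calls without each of the 12 libraries, as did that in TAGLN. TAGLN was called in opposite directions, with log2 steps of -0.84 in CTRL cells and 0.33 in inducible cells. Heat shock proteins had 4 of 12 members with a called difference (HSP90AA1, HSP90AB1, HSPA8 and HSPH1), ribosome biogenesis 3 of 30 (DKC1, NCL and NOLC1), immediate-early factors 5 of 21 and SRF-MRTF targets 5 of 25, against 1.3% of all genes tested. The calls were lost without any of 10 libraries for HSPH1, 11 for NCL, 4 each for the other heat shock genes and 3 each for DKC1 and NOLC1. Histones had 0 of 46 and mitotic genes 0 of 50, which is near that background. ALDH1A1 and MMP1 were also called in opposite directions, but their levels in inducible cells were low and uneven, and the calls of their differences were lost with DESeq2, with the robust fit and without any of 9 (ALDH1A1) or 7 (MMP1) of the 12 libraries. ALDH1A1 stood at 1.6, 6.89 and 11.8 CPM at 24 h in inducible cells and at 1800.5, 1803 and 1765 CPM at 24 h and 1912, 2098 and 2056 CPM at 48 h in CTRL cells, and MMP1 stood at 2.39, 6.7 and 9 CPM at 24 h in inducible cells, high and low in the same libraries.

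**Figure D5:**
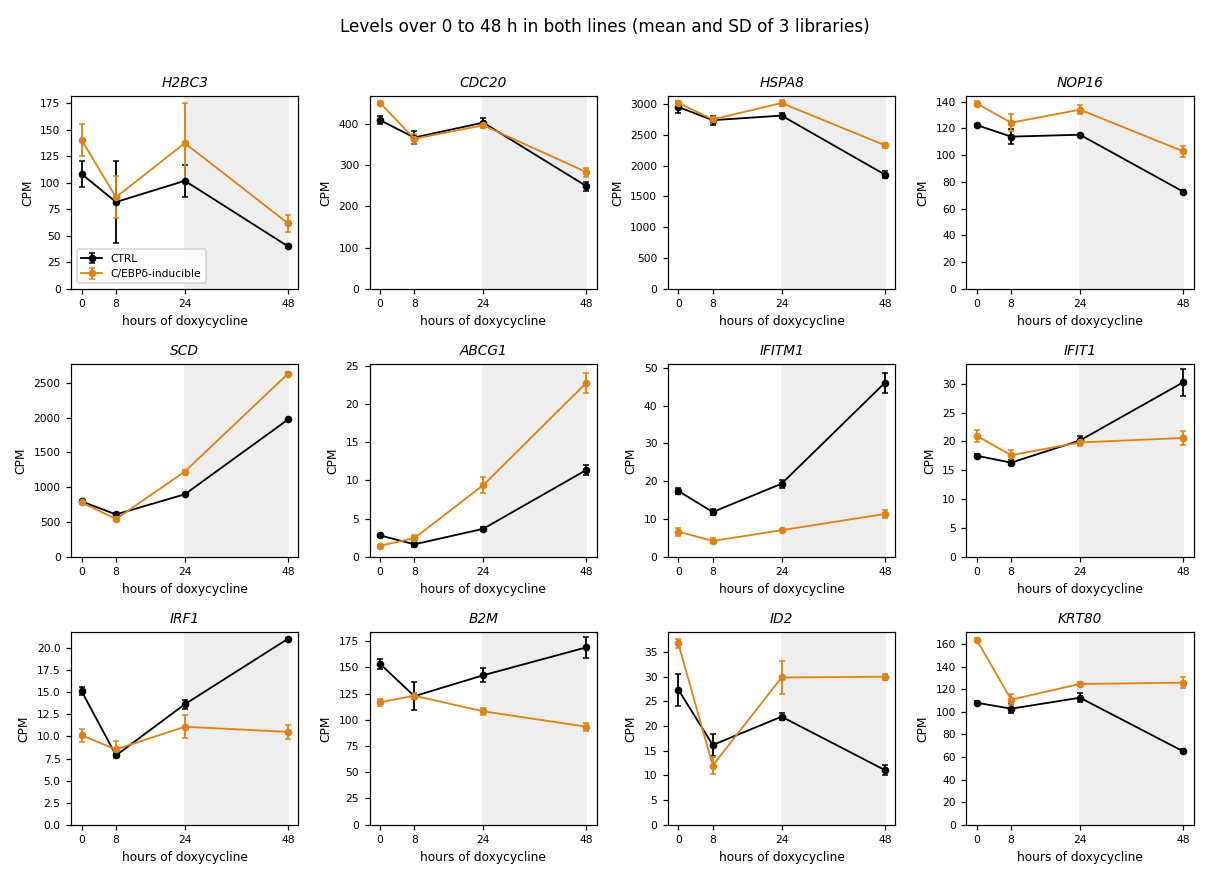
Mean level in CPM with the SD of 3 libraries at 0, 8, 24 and 48 h in CTRL cells (black line) and C/EBPδ-inducible cells (orange line) for 12 genes, with the second day shaded. H2BC3, CDC20, HSPA8 and NOP16 fall and SCD and ABCG1 rise in both lines over the shaded day, whereas IRF1, B2M, ID2 and KRT80 part between the lines.

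The labels also give CTRL cells at 0 h and 8 h, whose mean levels are set beside those of the second day here. CDC20 averaged 409.7, 367, 404 and 249 CPM at 0, 8, 24 and 48 h, and HSPA8 averaged 2954, 2738, 2814 and 1855 CPM. SCD averaged 794, 608, 897 and 1972 CPM, with the lowest mean at 8 h and the highest at 48 h. BTK averaged 0.0374, 0.0514, 0.244 and 2.3 CPM, which are values at or below the floor until 8 h. IFITM1 averaged 17.4, 11.8, 19.3 and 46.1 CPM in CTRL cells and 6.64, 4.17, 7.01 and 11.3 CPM in inducible cells. MT-ND4, in contrast, averaged 5922, 4519.8, 4400.3 and 6336 CPM, so that its 48 h level was near that at 0 h. MMP1 averaged 1225, 1402, 797 and 1122 CPM, and its 48 h level was below those at 0 h and 8 h.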

How the data were processed

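RNA of MIA PaCa-2 cells was depleted of ribosomal RNA and sequenced by the authors, and the deposited table holds their whole-number read counts per Ensembl gene for 24 libraries. The authors aligned reads to GRCh38 with HISAT2 after trimming with Trimmomatic and counted them with HTSeq. The submitters' processing notes give versions 0.36 of Trimmomatic and 2.3.4.3 of HISAT2, whereas the study's methods differ from them, and the strand setting of the counting is not given in the sources used here. Of the columns of the table, 0 were left out.

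From these counts, genes were kept by filterByExpr (minimum count 10, minimum total 15) and tested with edgeR 4.0.16 in R 4.3.3 (TMM factors, quasi-likelihood F test, group as the only term), with Benjamini-Hochberg adjustment over all genes tested and a threshold of 0.01. Every adjusted p in the text, unless another tool is named, is from this test. Log2 fold changes are those of the fit, and the SE is the size of the fold change divided by the square root of F. The step in inducible cells was fitted in the same way, and the difference between the lines as a contrast over the 4 groups. TMM factors over all 24 libraries scaled the CPM. An exact permutation test of a single gene, 3 values against 3, cannot go below p = 0.1. Of 60675 identifiers, 56558 matched GENCODE 44 on GRCh38, from which symbols, positions and GC content were taken, and promoters came from RefSeq (GRCh38.p14). Simulated data for CTRL 48 h against 24 h held 15233 genes, with 50 changed at each fold. Of these, 34% were recovered at 1.25-fold, 70% at 1.5-fold, 86% at 2-fold and 96% at 3-fold, with 0 false calls. In the data 23.5% of the genes tested were called. A simulation with so few changed genes therefore cannot show the recovery or the false calls of this comparison.

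The samples, the gene lists and the tests were chosen with earlier results of these data known. Named are the 12 protein-coding genes with the largest step in each direction among called genes with non-overlapping libraries and a mean of at least 1 CPM. By the same rule, 3 genes of other or unknown biotype are named in each direction. Also named are the 5 called genes of highest level, up to 5 called members of each list, and all C/EBP and migration genes. Added to these are the 5 genes in each direction with the largest called difference between the lines. Other members, among them all that were not called, were named after their values were seen. Some genes are not reported here by name and stay in the counts. Replicate numbers did not pair the libraries: deviations from the group means correlated at -0.044 on average between libraries of the same number and at 0.022 between others. The alternatives were other thresholds, DESeq2 1.42.0, total-count and upper-quartile scaling, other filters, a model of all 24 libraries, a replicate block, an analysis of variance, the kind of test the study used, on log2(CPM + 1), a scale chosen here, leaving out each library and, added after the data were seen, a robust fit and GC-content offsets.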

Additional observations from a re-analysis of the deposited data

Results flagged for a closer look

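In each result of this section the step from 24 h to 48 h differed between CTRL and C/EBPδ-inducible cells by edgeR's test of the difference itself (adjusted p below 0.01), which 215 genes passed. Values are the CTRL step minus the inducible step on the log2 scale. Of the genes named by rule, 40 passed, 14 with the greater and 26 with the smaller value in CTRL cells. Leaving out each of the 12 libraries in turn, 14 of the 40 kept their call throughout: CTSB, ACTG1, HK2, TFRC, KRT18, KRT80, TAGLN, DUSP7, ID2, CCN1, TMEM158, MT2A, SHH and ENSG00000204876. The other 26 lost it without at least 1 library. Groups held 3 libraries each and were too small for a test of single outlying libraries.

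The CTRL step was greater for BTK (4.14), ALDH1A1 (2.63), TRANK1 (2.32), MMP1 (1.69) and ENSG00000233461 (1.11), calls that were lost without any of 8, 9, 8, 7 and 3 libraries in that order, and for ALDH1A1 and MMP1 also with DESeq2 and the robust fit. It was also greater for CEBPD (0.74), which the construct of inducible cells carries and which averaged 308 ± 10.9 CPM at 24 h and 205 ± 6.5 CPM at 48 h there. Lipid and lysosome genes with a greater step were FADS2 (0.67), CTSB (0.58) and CTSZ (0.31). IFITM1 (0.56), SEMA4D (0.51), KLHL24 (0.49), MYPN (0.40) and PHGDH (0.32), the first enzyme of serine synthesis, completed these. MYPN did not rise in CTRL cells, where its log2 step was -0.092 and not called, but fell in inducible cells (-0.53). Its called difference was lost without any of 9 libraries.

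The CTRL step was smaller, which for most of these genes is a steeper fall, for HSP90AA1 (-0.21), HSPA8 (-0.23) and RRM2 (-0.24). Transporters and metabolic enzymes were SLC7A5 (-0.29), ELOVL1 (-0.34), HK2 (-0.355) and TFRC (-0.42). Cytoskeletal and epithelial genes were ACTG1 (-0.33), KRT18 (-0.41), KRT80 (-0.80), S100A2 (-0.99) and TAGLN (-1.20), of which S100A2 lost its call with DESeq2, in the model of all 24 libraries and without any of 9 libraries. Early-response and feedback genes were JUN (-0.40), FOSL1 (-0.48), DUSP7 (-0.47), DUSP5 (-0.54), ID3 (-0.40), ID2 (-0.99), CCN1 (-0.71) and TMEM158 (-0.76). The metallothioneins MT1G (-0.55) and MT2A (-0.56), the ligands EFNB2 (-0.78) and SHH (-1.16) and ENSG00000204876 (-1.47) followed. KRT17 had the lowest value (-7.33), which rests on few counts: its CTRL libraries held 0.159, 0.0924 and 1.09 CPM at 24 h and 0.0496, 0.117 and 0 CPM at 48 h.

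Of all 215 genes, 15 were called in opposite directions in the lines, and ALDH1A1, MMP1, KRT18, MT2A and TAGLN are the 5 of them named here. The lower call of MT2A in CTRL cells (log2 -0.14, adjusted p = 0.00965) was lost with total counts, upper-quartile factors, the stricter filter and the replicate block and without any of 5 of the 6 CTRL libraries.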

How the results depend on the processing

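No called gene or called difference named by rule changed sign under any alternative run, and of the 230 log2 fold changes recomputed 1 did, that of CEBPA, which was not called (-0.048, and 0.027 without replicate 2 at 48 h). The balance of calls did turn: genes called lower outnumbered those called higher with DESeq2, no filter on low counts (2032 higher, 2555 lower), the model of all 24 libraries (2230, 2282), the GC-content offsets and the analysis of variance, and without each library in turn. At an adjusted p below 0.05, 5692 genes were called in CTRL cells (3027 higher, 2665 lower) and 518 for the difference between the lines. Asking for at least 1.5-fold left 939 (764 higher, 175 lower). The analysis of variance on log2(CPM + 1) called 858 (372 higher, 486 lower), 24 in inducible cells and 98 for the difference. The GC-content offsets called 2618 genes lower, and no filter on low counts gave 410 genes for the difference. The cause of these changes was not tested. Leaving out 1 library gave from 2223 to 4867 genes in CTRL cells (981 to 2257 higher, 1217 to 2610 lower), from 2448 to 3629 in inducible cells and from 73 to 269 for the difference. The difference was called for 91 to 135 genes without replicate 2 or 3 of inducible cells at 24 h or any replicate of theirs at 48 h, and for 128 and 125 genes without replicate 3 of CTRL cells at 24 h or 48 h. DESeq2 called 3283 genes (42.2% higher) and total counts 3683 (62.0% higher). Over all genes tested, the median log2 fold change was 0.021 with TMM factors, -0.0072 with DESeq2, 0.060 with total counts and -0.0054 without replicate 1 at 24 h.

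Since the replicate numbers only name wells, the replicate block is given once: it called 3195 genes in CTRL cells (1675 higher, 1520 lower), 4316 in inducible cells and 248 for the difference.

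With the analysis of variance the interferon list had 4 members called higher in place of 18, the mitochondrial mRNAs 0 in place of 10 and the mitochondrial ribosomal proteins 2 lower in place of 21. With GC-content offsets 44 mitotic genes in place of 29 were lower, and 7 CDK inhibitors and p53 targets in place of 2, 9 glycolysis genes in place of 5 and 9 ATF4-CHOP genes in place of 5 were higher. Counts in lists with few called members were the least stable to leaving out a library. Leaving out a 24 h library left 1 or 2 of the 5 respiratory chain genes called lower, and leaving out replicate 1 at 48 h gave 10, and lists with 1 or 2 calls in a direction gained or lost them. HLA-F, at levels near 1 CPM, lost its call with every library omitted in turn. Among the genes named in the text, the call was also lost with at least 1 library omitted for the low CD14, SRXN1, APLN, ZNF815P, SLC4A1APP1 and MUC1 and for the small or variable steps of MT2A, S100A2, ALDH1A1, ADM, CBS, NFKB1, NOG, NPAS2, AREG, EGFR, BTG2, SLC7A11, ALDH1L2, CREB3L2, SEL1L, ATF6, RPL12, RPL15, RPL22 and RPL24, in most cases without a 24 h library. Of the named genes, 13 lost their call with DESeq2, 7 with total counts, 8 with the replicate block and 141 with the analysis of variance. The spread is that between parallel wells, and no second seeding was analysed here.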
